A study of Homo sapiens with 8 samples.

Results

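Chromatin accessibility was described at 9 immediate-early genes, EGR1, EGR2, EGR3, NR4A1, KLF6, SRF, IER2, IER3 and IER5. They were chosen by name and not by a rule on measured values, but with earlier results of these data known. Every region of the 8 deposited peak lists that overlapped the span of one of these genes (GENCODE version 44, hg38) or the 20 kb on either side was taken. The windows held 666 of the 1440417 regions of the 8 lists, between 75 and 90 in each list, and these merged into 141 of 548046 union sites. A union site is the stretch covered by overlapping regions of any of the lists.

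The lists came from ATAC-seq of U2OS, a human osteosarcoma cell line, in which the Tn5 transposase inserts adapters into open chromatin. The 4 groups, with 2 biological replicates each, were WT cells without UV, WT cells 3 h post UV, ASH1L knockout cells without UV and ASH1L knockout cells 3 h post UV, where UV was a UV-C dose of 20 J/m2 and all cells were treated with DNase before tagmentation. ASH1L is a histone methyltransferase, and its knockout was made with CRISPR/Cas9 and isolated from individual colonies, so that genotype and clone cannot be told apart. One line and one recovery time were studied, and no RNA was measured, so that the values describe open chromatin and not transcription.

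Immediate-early genes are transcribed within minutes of a growth factor or stress signal, without new protein synthesis. In the best known route, MAP kinases phosphorylate ternary complex factors that sit with SRF on the CArG box of the promoter, and SRF also works with the actin-regulated MRTF coactivators. EGR1, EGR2 and EGR3 are zinc finger factors that bind GC-rich DNA, NR4A1 is an orphan nuclear receptor, KLF6 is a zinc finger factor, and the IER genes encode short-lived regulators of growth and survival.

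The sequences below are read from hg38 in the direction of transcription of the named gene. The first set is shown because it holds the CArG boxes upstream of a start site in the promoters of EGR1, EGR2 and SRF. Capitals mark the letters of a CArG box, searched on both strands.
EGR1 promoter, chr5:138464910-138465110, plus strand: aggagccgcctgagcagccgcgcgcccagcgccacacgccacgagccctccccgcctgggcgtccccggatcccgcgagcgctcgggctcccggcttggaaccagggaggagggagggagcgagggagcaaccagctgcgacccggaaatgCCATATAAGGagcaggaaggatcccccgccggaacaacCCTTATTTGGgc
EGR2 promoter, chr10:62816376-62816495, minus strand: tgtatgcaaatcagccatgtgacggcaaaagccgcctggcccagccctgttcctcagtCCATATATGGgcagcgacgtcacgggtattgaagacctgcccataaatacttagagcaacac
SRF promoter, chr6:43171068-43171268, plus strand: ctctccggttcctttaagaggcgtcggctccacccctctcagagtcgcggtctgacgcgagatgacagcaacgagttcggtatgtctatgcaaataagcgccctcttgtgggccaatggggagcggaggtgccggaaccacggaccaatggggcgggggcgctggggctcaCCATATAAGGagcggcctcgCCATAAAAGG

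The second set is shown because it holds the 160 bases around the summit of sites that were listed on one side of the UV comparison. It also holds an IER5 site in all lists, added after its values were seen, whose percentiles stood far apart. Not printed are the one-sided sites 17.3 kb downstream of the EGR1 start, 43.9 kb downstream of the NR4A1 start and at the BIN3 promoter. Capitals mark a CArG box in the IER3 site and the AP-1 motif TGACTCA in one IER5 site.
EGR1, 4.8 kb downstream of the gene start, no UV lists, chr5:138470242-138470401, plus strand: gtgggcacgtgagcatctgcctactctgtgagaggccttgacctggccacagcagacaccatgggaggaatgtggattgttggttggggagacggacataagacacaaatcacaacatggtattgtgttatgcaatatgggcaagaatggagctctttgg
IER3, 18.4 kb downstream, no UV lists, chr6:30726072-30726231, minus strand: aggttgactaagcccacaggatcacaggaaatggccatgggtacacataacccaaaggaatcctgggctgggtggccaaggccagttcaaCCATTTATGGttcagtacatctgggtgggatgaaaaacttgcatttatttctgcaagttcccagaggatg
IER5, 14.8 kb upstream, all lists, chr1:181073790-181073949, plus strand: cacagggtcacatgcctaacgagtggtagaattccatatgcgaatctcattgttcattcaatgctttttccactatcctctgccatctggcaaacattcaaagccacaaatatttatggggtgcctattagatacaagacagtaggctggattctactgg
IER5, 8.8 kb downstream, post UV lists, chr1:181097399-181097558, plus strand: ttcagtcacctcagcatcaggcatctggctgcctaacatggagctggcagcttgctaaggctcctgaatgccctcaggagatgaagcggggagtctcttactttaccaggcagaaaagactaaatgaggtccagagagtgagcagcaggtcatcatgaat
IER5, 12.1 kb downstream, post UV lists, chr1:181100719-181100878, plus strand: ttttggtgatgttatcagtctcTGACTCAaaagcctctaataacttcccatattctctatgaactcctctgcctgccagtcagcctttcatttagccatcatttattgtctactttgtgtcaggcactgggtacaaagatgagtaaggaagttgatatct
NR4A1, 3.7 kb upstream, post UV lists, chr12:52019071-52019230, plus strand: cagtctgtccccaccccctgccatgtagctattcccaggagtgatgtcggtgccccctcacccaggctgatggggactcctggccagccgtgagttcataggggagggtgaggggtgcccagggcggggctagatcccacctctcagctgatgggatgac
KLF6, 27.3 kb downstream, post UV lists, chr10:3757864-3758023, minus strand: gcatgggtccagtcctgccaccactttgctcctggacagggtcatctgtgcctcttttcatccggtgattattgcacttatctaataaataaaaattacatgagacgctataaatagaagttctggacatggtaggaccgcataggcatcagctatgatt

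In the RefSeq promoters (250 bases before to 50 after a start, hg38), 1.26% of 21548 held a CArG box. Among the members it was found in those of EGR1, at 105 and 83 bases before the start, of EGR2, at 71 bases before one of its starts, and of SRF, at 30 and 10 bases before the start. The 300 bases around the EGR1 promoter summit held 3 further matches, of which the printed bases show 2. AP-1 letters stood in 20 of the 114 flanking sites (17.5%), beside 13.6% of all union sites searched over the same length. Among sites in all 8 lists the order turned, with 8 of 33 (24.2%) beside 32.5%. A CArG box stood in 5 of the 114 (4.39%), beside 1.53% of all union sites. The letters of the CRE (TGACGTCA) stood in 1, of the EGR site (GCGTGGGCG) in 1 and of the ETS site (CCGGAAGT) in 0 of the 114, beside 0.262%, 0.103% and 0.389% of all union sites. None of these motifs, nor AP-1, was found in the RefSeq promoters searched, those of EGR1, EGR2, IER2, IER5, NR4A1, KLF6 and SRF, where 2.3%, 1.04%, 5.43% and 4.03% of all promoters held them. The NR4A1 promoters searched were not those at the inner starts, 28.2 kb downstream of the gene start, where its strongest region lay in all 8 lists. For IER2 only the outer of its start sites was searched. In the 27 union sites at the members' own promoters, AP-1 letters stood in 2 and those of the CRE in 1. All were searched on both strands. A match is a stretch of letters and not a measured binding site.

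The lists held between 158198 and 220783 regions. Fold enrichment is the fragment pileup at a summit over the local background, both with 1 added. The mean pileup over the genome, taken as the lowest background in each list and used as a measure of depth, lay between 1.39 and 2.81 in 7 libraries. It reached 5.87 in replicate 1 of the unchallenged ASH1L knockout, which also had the lowest median fold enrichment, 2.57. Regions were wider after UV, with medians of 356 to 444 bp beside 242 to 291 bp. Replicate 2 of WT post UV had the highest median fold enrichment, 5.06, and gave the lowest promoter percentile of 8 of the 9 members. Of 7 mesenchymal and osteoblast marker promoters 5 had a region in all lists, as did 4 of 10 promoters that mark other cell types.

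All 9 members had a region within 1 kb of a start site in all 8 lists, which 13487 of 17611 listed promoters had. To compare lists of unequal depth, each region was given its percentile of fold enrichment within its own list, and the strongest region of a promoter stood for it. Averaged over the 8 lists, the percentile ran from 72.0 ± 10.6 for IER2 to 85.7 ± 6.90 for IER5 (SD, n = 8 libraries). The promoters of the 3 EGR genes, at 74.6 ± 7.99, 75.0 ± 6.63 and 75.7 ± 5.22 for EGR1, EGR2 and EGR3, lay within each other's spread.

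**Figure D1:**
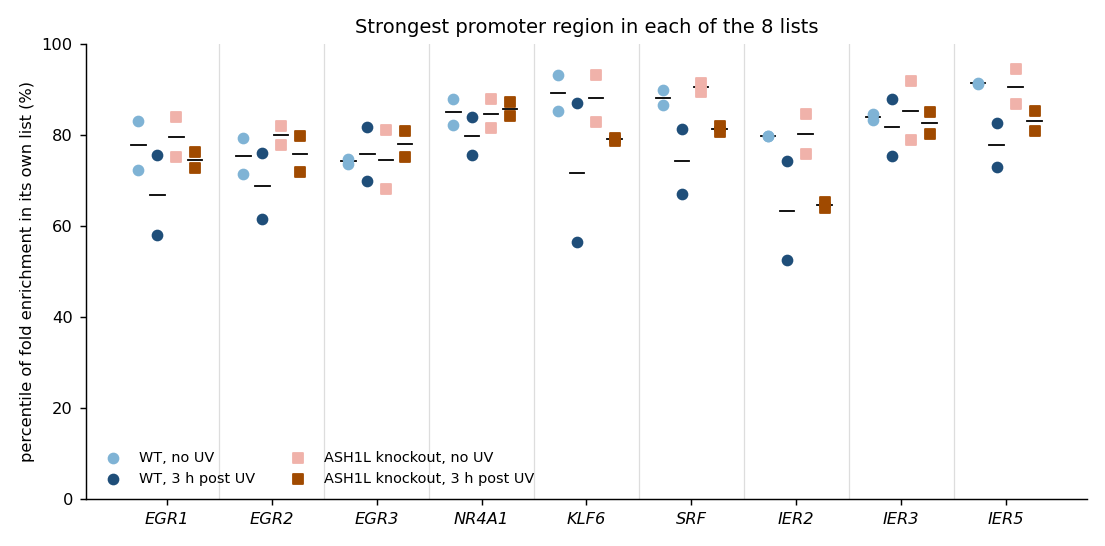
Percentile of the strongest promoter region of each member within its own list (vertical axis, %), by gene. Each point is a library, colours and shapes give the 4 groups, and the short line is the mean of 2. The post UV points of IER2, IER5 and SRF lie below all of their no UV points, and for the other 6 genes the 2 sides overlap.

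The first question was whether promoter accessibility differed 3 h post UV. A promoter was called when the 4 post UV libraries did not overlap the 4 no UV libraries, which corresponds to an exact two-sided permutation p of 0.0286, the smallest of 70 assignments. IER2, IER5 and SRF had lower percentiles in all 4 post UV lists, and no member had higher ones. Over all promoters 15.6% were called lower and 2.06% higher. Adjusted over 17611 promoters with the Benjamini-Hochberg method, the exact permutation p of these 3 genes became 0.162. It was the smallest value of any promoter, so that none passed at 0.05.

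IER2 encodes a nuclear regulator of the early response. Its promoter percentile was 79.7 and 79.8 in WT and 84.7 and 75.8 in ASH1L knockout cells without UV. After UV it was 74.2 and 52.6 in WT and 64.0 and 65.3 in the knockout. The mean was thus 64.0 ± 8.87 post UV and 80.0 ± 3.64 without (SD, n = 4 libraries each), a difference of -16.0 percentile points where the median promoter differed by -2.34. IER2 has start sites at the 5' end and farther inside. The strongest region was nearest to the inner one in 7 lists and to the outer one in replicate 2 of WT post UV. In replicate 1 of the unchallenged knockout its summit lay 53 bp past the inner start. In the rest of the 7 lists it lay 943 to 1165 bp past that start, in another region. The sides thus partly compared different regions, most of them not at a start. At the outer start alone the percentiles were 73.5, 69.3, 80.2 and 69.7 without UV and 56.4, 52.6, 54.0 and 61.4 post UV, again without overlap.

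SRF, the factor that binds the CArG box, had promoter percentiles of 89.8 and 86.5 in WT and 91.5 and 89.6 in the knockout without UV. After UV these were 81.3 and 67.1 in WT and 80.7 and 81.9 in the knockout. The means were 77.8 ± 7.15 and 89.3 ± 2.05 (SD, n = 4 libraries each), a difference of -11.6 points. IER5, a regulator tied to the heat shock response, had 91.4, 91.2, 94.4 and 86.8 without UV and 82.6, 73.0, 80.9 and 85.2 post UV, a difference of -10.5 points. Both genotypes lay on the same side for all 3 genes, and without replicate 2 of WT post UV the differences were -12.2, -8.03 and -8.02 points for IER2, SRF and IER5, still without overlap. The percentile of KLF6 differed by -13.3 points, more than that of SRF, but its groups overlapped (exact permutation p = 0.0857), since replicate 1 of WT post UV stood at 87.0.

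For EGR1 the percentile was 70.6 ± 8.59 post UV and 78.6 ± 5.72 without (SD, n = 4 libraries each, exact permutation p = 0.257). EGR2 differed by -5.42 points and EGR3 by 2.53 points, with overlap in both (exact permutation p = 0.314 and 0.457). For IER3 and NR4A1 the differences were -2.48 and -2.15 points, close to that of the median promoter.

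A percentile depends on the other regions of a list, so the promoters were also compared by the summit pileup divided by the mean pileup of the genome, on the log2(value + 1) scale. On this scale the order changed. EGR3 and NR4A1 had higher pileup in all 4 post UV lists, where 10.7% of promoters did, and no member had lower, where 0.25% did. The median promoter was higher by 0.42. At EGR3 the scaled pileup was 15.7 and 27.0 in WT and 13.0 and 17.3 in the knockout without UV, and 31.6 and 46.8 in WT and 33.9 and 35.9 in the knockout post UV. This gave a log2 difference of 1.02 (5.23 ± 0.24 against 4.22 ± 0.43, SD, n = 4 libraries each). The strongest NR4A1 region lay at inner start sites, 28.2 kb downstream of the gene start. Its scaled pileup differed by 0.79 on the log2 scale, from 38.1, 31.0, 18.1 and 34.5 to 43.9, 61.3, 58.4 and 44.1. For both, the adjusted exact permutation p was 0.262. The EGR3 value depended on which region was taken within 1 kb. The summits taken lay at -1022, -919, -1568 and -970 bp from the start without UV and at -1579, -2462, -1574 and -1572 bp post UV. The sides thus partly compared different summits, most of them more than 1 kb upstream of the start. With the strongest region of the whole union site, chosen after the values were seen, the scaled pileup was 22.9, 36.2, 14.7 and 24.5 without UV and the same as before post UV. The groups then overlapped, with a log2 difference of 0.63 (exact permutation p = 0.114). The percentile of that region was 80.0 to 84.5 without UV and 69.8 to 81.7 post UV, a difference of -5.87 points with overlap.

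The members that were lower by percentile were not lower by pileup in the means of 4 libraries. IER2, IER5 and SRF differed by 0.26, 0.47 and 0.04 on the log2 scale, each with overlapping groups, and the local background around IER5 differed by 0.67 where that of the median promoter differed by 0.31. The deepest library, replicate 1 of the unchallenged knockout, had the lowest no UV pileup at all 3, for SRF 52.3 beside 98.6, 122.4 and 114.4. Within WT the log2 differences of IER2, IER5 and SRF were 0.08, 0.16 and -0.24. Within the knockout they were 0.45, 0.79 and 0.32. When the percentile was taken among promoter regions only, SRF was lower and EGR3, by 11.0 points, was higher in all 4 post UV lists, where 4.87% of promoters were lower and 6.46% higher, and IER2 and IER5 overlapped. The EGR3 value again rests on the region within 1 kb. With limma on quantile-normalised log2 fold enrichment no member passed, the lowest adjusted p being 0.129 for IER5.

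**Figure D2:**
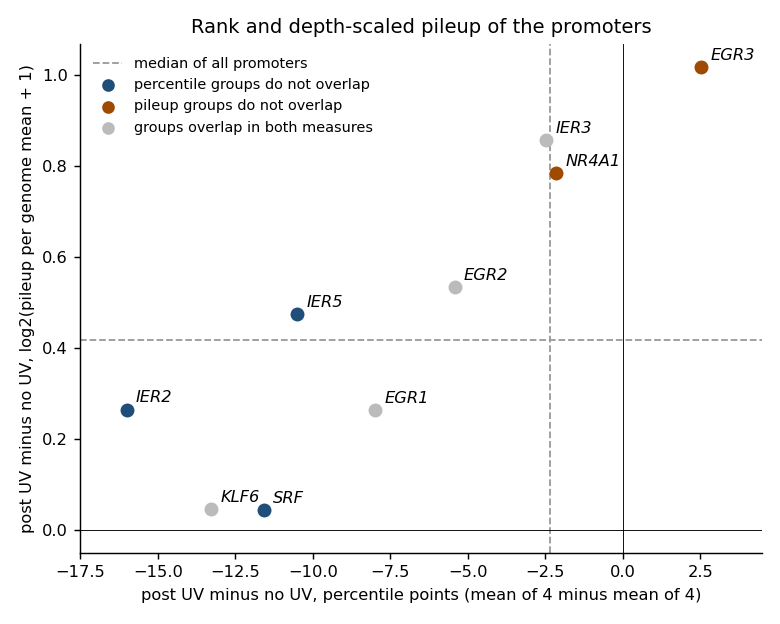
Difference between the mean of 4 post UV and the mean of 4 no UV libraries at each member promoter, in percentile points (horizontal) and in log2(pileup per genome mean + 1) (vertical), with dashed lines at the medians of all promoters, -2.34 and 0.42. EGR3 stands at the upper right, SRF and KLF6 at the lower left, and no member lies below 0 in pileup.

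The width of the promoter region added one further difference. In EGR3, whose region lies upstream of the gene, the strongest region was 390 and 960 bp wide in WT and 973 and 630 bp in the knockout without UV. Post UV it was 1517 and 1873 bp in WT and 1793 and 1836 bp in the knockout. The difference of 1016 bp (1755 ± 162 against 738 ± 281 bp, SD, n = 4 libraries each) was larger than that of 99.99% of promoters, whose median was 73.8 bp. The bases covered within that site differed by only 112 bp (1812 ± 54.8 against 1700 ± 61.0 bp, exact permutation p = 0.0571). The site held 3 and 2 regions in WT and 2 and 2 in the knockout without UV. Post UV it held 2 and 1 in WT and 1 and 1 in the knockout, so that these counts overlapped. The gene span of EGR3 itself held no region in any list.

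IER3 also had a wider promoter region in all 4 post UV lists. It measured 554 and 546 bp in WT and 611 and 634 bp in the knockout without UV, and 1000 and 973 bp in WT and 704 and 649 bp in the knockout post UV. Wider regions were called at 15% of promoters and narrower ones at 0.467%, and the adjusted exact permutation p was 0.185 for both genes. The EGR1 region was long and even, between 1678 and 1744 bp in every list.

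**Figure D3:**
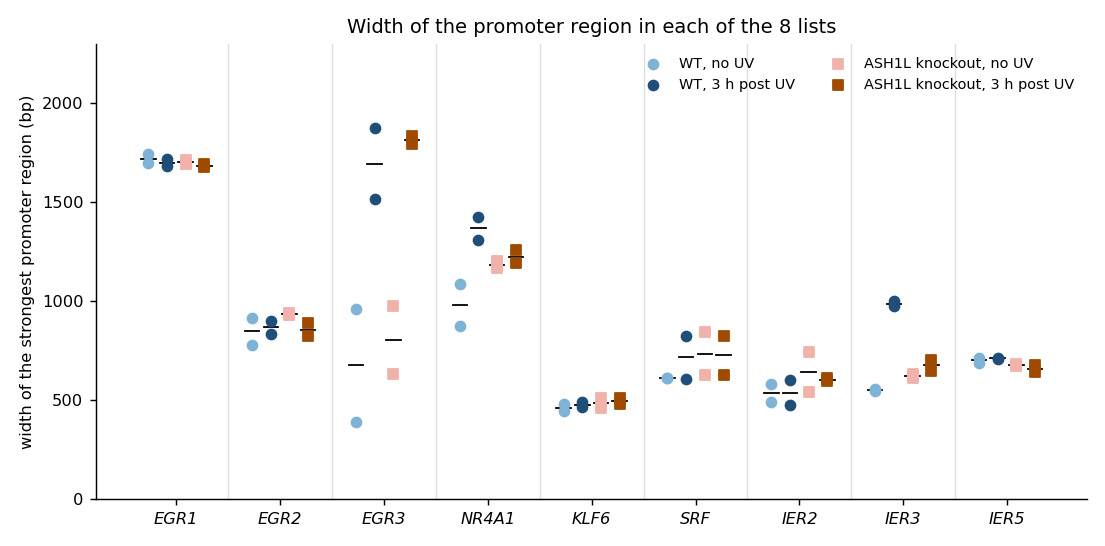
Width in bp of the strongest promoter region of each member in each library (points) with the mean of each group of 2 (short lines). EGR3 and IER3 show post UV points above all no UV points, while EGR1 stays between 1678 and 1744 bp.

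Around the promoters lay 114 flanking sites, 15 of them at promoters of other protein-coding genes, 31 in gene bodies and 68 elsewhere. Of these, 33 (29.0%) were in all 8 lists and 44 (38.6%) in a single one, beside 11% and 60.5% of all union sites. In 8 of the 9 genes the strongest flanking site had a higher mean percentile than the promoter itself, the exception being KLF6. That site was picked by the same percentile from 5 to 19 flanking sites per gene, and the share over all genes was not counted. The highest of these strongest sites were a site 8.0 kb upstream of IER3, with a mean of 99.0, and the promoter of ADO, 14.6 kb downstream of the EGR2 start, with 98.0. An IER5 site 24.0 kb downstream of its start kept to 92.1 to 96.8 in every list.

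**Figure D4:**
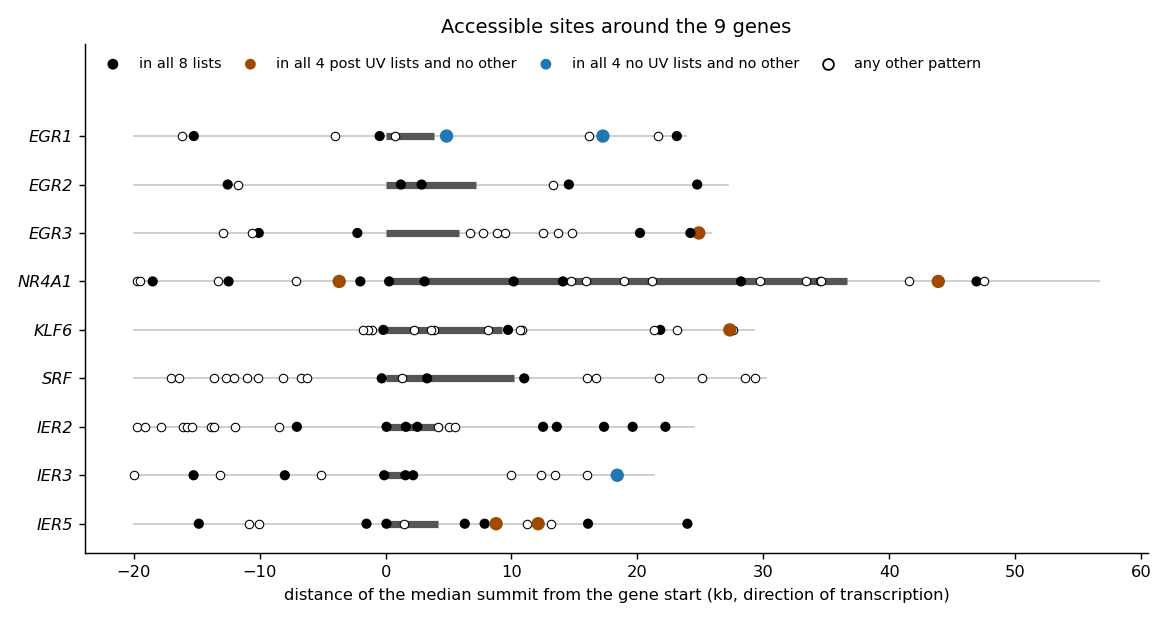
Union sites in the windows of the 9 members by distance of the median summit from the gene start in kb, in the direction of transcription. Thick grey lines are the genes, black points are sites in all 8 lists, and coloured points are the 6 sites listed only post UV and the 3 listed only without UV.

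Presence after UV was the next comparison. Of the 114 flanking sites, 6 were in all 4 post UV lists and in no other, and 3 were in all 4 no UV lists and in no other. Over all union sites these shares were 0.686% and 0.0967%. Among sites found in exactly 4 lists, where such a split is possible, 19% of all union sites were post UV only and 2.68% no UV only, and the members had 10 such sites. By this rule both replicates of both genotypes carried each of the 9 sites. The no UV side holds both the shallowest and the deepest library.

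EGR1 held 2 of the 3 sites found only without UV. The first, at chr5:138469464-138471374, begins just past the 3' end of EGR1, 4.8 kb from the gene start, outside any protein-coding gene. It ranked at 67.2 and 67.8 in WT and 62.3 and 67.2 in the knockout without UV, with regions of 1475 to 1785 bp, and no post UV list held a region there. The second, at chr5:138482549-138483363, 17.3 kb from the start, ranked at 35.6, 46.7, 57.1 and 59.1. Its q-values reached 0.0292 and its summit pileup was 8 to 18, so that it was close to the limit of detection in the shallower libraries. A neighbour 16.2 kb from the start was in 3 of the no UV and none of the post UV lists.

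In the other direction, a site 21.7 kb from the EGR1 start ranked at 77.9 and 71.6 in WT and 83.0 and 82.4 in the knockout post UV. Without UV it ranked at 43.0 in one WT list and 70.7 in one knockout list, and was not listed in the other two. The EGR1 window had fewer covered bases in every post UV list. These were 5482 and 5246 in WT and 5820 and 4812 in the knockout without UV, and 3775 and 3818 in WT and 3180 and 3560 in the knockout post UV. The mean differed by -1757 (3583 ± 292 against 5340 ± 424, SD, n = 4 libraries each). The 2 sites listed only without UV covered 1475 to 1785 bp and 260 to 657 bp of this window in the no UV lists and 0 bp post UV. The window difference is thus not a separate result from those sites. Only 0.407% of 19633 gene windows had lower coverage in all 4 post UV lists, while 11% had higher. The adjusted exact permutation p was 0.251, the smallest of any window.

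The windows of EGR2, IER5 and NR4A1 had more covered bases in all 4 post UV lists. IER5 had 4855 and 5083 in WT and 4914 and 3863 in the knockout without UV, and 6630 and 7393 in WT and 5916 and 6528 in the knockout post UV, a difference of 1938. NR4A1 differed by 1816 and EGR2 by 660.5, where the median window differed by 365.2. The 4.5 kb gene span of IER2 was covered to 40.2% ± 2.90 post UV and 30.4% ± 3.40 without (SD, n = 4 libraries each), without overlap, as in 10.2% of genes.

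The IER5 window held sites that stood on both sides of the comparison. A site at chr1:181073567-181074155, 14.8 kb upstream, ranked at 94.4 and 97.7 in WT and 97.1 and 95.4 in the knockout without UV. Post UV it ranked at 62.8 and 52.5 in WT and 60.4 and 69.1 in the knockout. Its pileup per genome mean was 42.4, 72.4, 19.4 and 41.0 without UV and 15.8, 28.4, 14.3 and 13.5 post UV, and on that scale the deepest no UV library lay among the post UV ones. Sites 6.3 and 7.9 kb downstream were lower by percentile in all 4 post UV lists as well.

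A site 10.0 kb upstream of IER5, 4.8 kb from the former, had the opposite pattern. It ranked at 94.6 and 85.4 in WT and 92.7 and 90.7 in the knockout post UV, and at 76.2, 54.2 and 76.1 without UV, while replicate 2 of the unchallenged knockout did not list it. Its pileup per genome mean was 48.2, 73.7, 40.0 and 29.9 post UV and 19.1, 16.1 and 6.13 in the no UV lists that held it. The sites listed only post UV stood 8.8 kb downstream, at 60.0, 28.0, 43.0 and 37.2, and 12.1 kb downstream, at 33.5, 8.42, 29.2 and 0.276. The last of these values is the region with a q-value of 0.0603, above the usual threshold of 0.05.

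NR4A1 gave 2 sites listed only post UV. One, 3.7 kb upstream, ranked at 31.2 and 37.6 in WT and 48.7 and 27.6 in the knockout. The other, 43.9 kb from the start and past the 3' end, ranked at 32.7, 17.1, 31.0 and 25.7. The KLF6 site 27.3 kb downstream, which overlaps an exon of a long noncoding RNA, ranked at 56.1 and 52.0 in WT and 29.7 and 54.2 in the knockout. The sixth, at the promoter of BIN3 in the EGR3 window, ranked between 12.8 and 23.1. The remaining no UV site, 18.4 kb from the IER3 start and holding the CArG box printed above, ranked at 55.8, 27.4, 60.2 and 1.76, with a q-value of 0.0950 in the last.

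Among the 33 flanking sites in all 8 lists, 1 had a higher percentile in all 4 post UV lists and 10 a lower one. Over all such union sites these shares were 5.99% and 12.3%. The higher one lay 10.1 kb upstream of EGR3, at 86.0 and 81.1 in WT and 85.7 and 82.7 in the knockout post UV against 77.7, 76.3, 69.1 and 62.5 without. Its scaled pileup was 20.6 to 31.0 post UV and 5.11 to 11.5 without, so that both measures separated the groups. The 10 lower sites comprised 3 around IER5, 2 each around IER3 and NR4A1 and 1 each around EGR2, EGR3 and IER2. In the strongest of them the difference was small. The ADO promoter in the EGR2 window ranked between 98.9 and 99.6 without UV and between 94.1 and 98.4 post UV, and the IER3 site 8.0 kb upstream between 99.5 and 99.9 and between 96.6 and 99.2. Of the 12 flanking sites in 5 to 7 lists, 6 were higher in all 4 post UV lists with an absent region set to 0 and 0 lower, beside 11.7% and 3.72% of all union sites in 5 to 7 lists.

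The second question was whether the loss of ASH1L went with other accessibility at these genes. By percentile none of the 9 promoters was called between genotypes, where 2.96% of all promoters were. The differences, ASH1L knockout minus WT, ran from 0.867 points for IER2 to 5.78 for EGR2, and the median promoter differed by 0.975. By exact permutation none was below p = 0.05 unadjusted, nor did limma give an unadjusted p below 0.05, its lowest being 0.334 for SRF. By scaled pileup IER5 was lower in all 4 knockout lists, by 0.78 on the log2 scale (5.05 ± 0.53 against 5.83 ± 0.41, SD, n = 4 libraries each, adjusted exact permutation p = 0.451), where 5.85% of promoters were lower. The deep knockout library, replicate 1 without UV, had 18.9 there, and the other knockout lists 30.9 to 42.6. The IER5 promoter region was also narrower, by 37.5 bp, in the knockout lists (668 ± 18.6 against 706 ± 11.1 bp, SD, n = 4 libraries each), where 1.01% of promoters were.

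No flanking site was listed in one genotype alone, where 0.263% of all union sites were, and no window differed in covered bases without overlap, where 4.91% did. A single flanking site in all lists separated the genotypes by percentile, 13.6 kb downstream of the IER2 start. It ranked at 45.4, 41.1, 39.8 and 22.4 in WT and 74.0, 64.3, 67.1 and 50.5 in the knockout, where 2.57% of such sites were higher.

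The third question was whether the genotypes differed in their response to UV. The call set the WT post UV and knockout no UV libraries against the others, so that only opposite responses in the genotypes could be called. None of the 9 promoters was called in this way, where 0.801% of all promoters were. The call cannot decide whether responses of the same sign differ in size. With limma the lowest unadjusted p of a member for this difference was 0.508, for IER3. In WT the promoter of IER2 differed by -16.4 points between post UV and no UV means and in the knockout by -15.7, and that of EGR3 by 1.55 and 3.51. KLF6 gave -17.6 in WT and -8.99 in the knockout, and NR4A1 gave -5.26 and 0.959. With 2 libraries against 2 the smallest exact permutation p is 0.333, so that no response within a genotype could be called.

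The genes that share this response or drive it were counted in the same way. Of 30 other immediate-early genes, 11 had promoters with a lower percentile in all 4 post UV lists and 0 a higher one, beside 15.6% and 2.06% of all promoters. By scaled pileup 7 were higher and 0 lower, beside 10.7% and 0.25% of all promoters. Of the called genes, the most different by percentile were GADD45B, a stress sensor, by -21.3 points, JUNB and FOSB, subunits of AP-1, by -19.8 and -15.9, and CCN1, a secreted matrix protein, by -16.4. EGR4 and KLF4, named after their values were seen, differed by 29.0 and -22.0 points with overlapping groups. The median difference of the 30 was -5.08 points, that of the 9 members -7.99 and that of all promoters -2.34. Between genotypes 0 of the 30 were called by percentile.

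Among 18 genes that regulate the response, kinases, ternary complex factors and MRTF coactivators, 3 promoters were lower and 1 higher, beside 15.6% and 2.06% of all promoters, so that the lower share was near the background. MAPK8, the kinase JNK1, differed by -15.5 points, MAP2K2 by -12.4 and MAP2K1 by -10.9. The higher one was MRTFB, a coactivator of SRF, with 68.4 ± 8.49 post UV and 29.2 ± 20.5 without (SD, n = 4 libraries each). On the scaled pileup 5 of the 18 were higher and 0 lower, beside 10.7% and 0.25% of all promoters.

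The promoters whose percentiles over the 8 lists were most like those of the EGR genes, by the mean absolute difference, included CST3 and TLCD1 for EGR1, at 1.84 and 1.88 points. For EGR2 they were BCAT2, IGSF8 and TSPAN14, at 2.18 to 2.25 points, and for EGR3 CDPF1, KIF1A and RAVER2, at 2.13 to 2.26 points.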

How the data were processed

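Omni-ATAC-seq was made in 8 U2OS libraries, 2 per group of genotype and UV treatment, grouped by the labels. Per the labels and methods, the authors trimmed reads (cutadapt 1.9.1), aligned them to hg38 (Bowtie2 2.4.5), removed duplicates, low-quality, mitochondrial and blacklisted reads (Picard, SAMtools 1.7, bedtools 2.29.2) and called peaks in each library separately with MACS2 2.2.7.1. The authors deposited narrowPeak lists with a fold enrichment ratio, -log10 p-value, -log10 q-value, integer score and summit per peak. The lists reach a p-value of 0.01, looser than a q-value threshold of 0.05, and 77.4% to 94.2% of regions had a q-value below 0.05. No read counts were used, and the shift of Tn5 cut sites is not given in the sources used here.

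Summit records of one interval were joined into a region with the highest fold enrichment. Pileup and background were solved from the deposited fold enrichment and p-value, as the whole pileup that returned the deposited -log10 p-value within 0.01 or 0.1% of it, which was found at 100% of promoter summits. Percentiles were ranks within a list. Groups of 4 were compared by an exact two-sided permutation test (Python 3.11.15, scipy 1.17.1), with Benjamini-Hochberg adjustment over all protein-coding promoters, windows or sites; limma 3.58.1 was run on quantile-normalised log2 fold enrichment. The code was tested on simulated data. The p-values measure the spread between these libraries only.

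The 9 members and the lists were chosen with earlier results of these data known. Named were all members, each called site, the strongest flanking site per gene, the 3 promoters most like each EGR gene (1 of those for EGR1 is not reported here), and at most 6 called genes per other list. The alternatives, given at the end, were other promoter and window sizes, a q-value limit, other percentile bases, pileup, limma, a replicate block and leaving out each library.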

Additional observations from a re-analysis of the deposited data

Results flagged for a closer look

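Within each side of the UV comparison, the percentile, width and pileup per genome mean of the 9 promoters were searched for a library far from the other 3, in 54 groups of 4. Such a gap is found by chance in about 1 of 20 groups, and 6 were found. Replicate 2 of WT post UV gave 3 of them. It had an SRF percentile of 67.1 beside 80.7 to 81.9 in the other post UV lists, an IER2 width of 474 bp beside 594 to 611 bp in the other post UV lists, and an IER5 pileup per genome mean of 78.9 beside 42.5 to 44.3. The IER2 widths belong to different regions, since the strongest one was at the outer start in this list and farther inside in the other post UV lists, and the inner region was 533 bp wide in it. This library also had the highest median fold enrichment, and the part of that in these values was not tested. The EGR2 promoter region was 780 bp wide in replicate 2 of unchallenged WT, beside 917 to 939 bp in the other no UV lists. The SRF promoter region was 844 bp wide in replicate 2 of the unchallenged ASH1L knockout, beside 612 to 626 bp. The bases covered at that site were 790 and 784 in the replicates 1 without UV of WT and the knockout, each in 2 regions, so that the gap is partly that of a joined against a split region. The KLF6 pileup per genome mean was 14.0 in replicate 1 of the unchallenged ASH1L knockout, the deepest library, beside 22.3 to 23.0 in the other no UV lists.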

How the results depend on the processing

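The 3 promoters called lower post UV became 1 lower (SRF) with regions at a q-value below 0.05, 2 higher (EGR3 and NR4A1) by pileup per genome mean, and 0 with limma, in which 494 promoters were higher and 291 lower at an adjusted p below 0.05. By pileup 1 promoter was called between genotypes. Called widths fell to 1 with promoters of 500 bp. Windows called for covered bases after UV went from 4 to 2 with 50 kb on each side and to 1 by the number of regions, and flanking sites listed on one side of the UV comparison from 9 of 114 (7.89%) to 5 of 56 (8.93%) with 10 kb on each side and 12 of 282 (4.26%) with 50 kb. An overlap of at least 50% of the shorter of site and region gave the same calls by construction. For the other settings the calls were within 1.5 times, and the cause of the differences was not tested.

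The main tests did not pair libraries by replicate number, and 1 of 6 pairs of groups had a same-number correlation above 0.1. Whether libraries of one number shared a batch was not tested. Limma with the replicate block called 632 promoters higher and 417 lower for UV, beside 494 and 291 without the block. For genotype it called 21 higher and 32 lower, beside 16 and 15. No member passed in that fit, the lowest adjusted p for UV being 0.0979 for KLF6. With the replicate block, 5 promoters were called by percentile for UV (32.5% of all), 1 for genotype (14.2%) and 1 for the difference in response (39.5%). By width 4 were called, where 33.5% of promoters with a region in all 8 lists were. For genotype 1 window was called, and the share over all windows was not counted. The counts of flanking sites stayed by construction.

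Leaving out each library in turn gave 3 to 4 promoters by percentile, 2 to 3 by width, 4 to 6 windows for UV, 0 to 1 for genotype and 9 to 11 flanking sites for UV, and 0 promoters for genotype or response and 0 flanking sites for genotype. The fourth promoter was KLF6, without replicate 1 of WT post UV, and the window for genotype appeared without replicate 1 of the knockout post UV.

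Single differences turned in sign as follows. EGR3 gave -5.87 points with promoters of 2 kb, and its pileup difference of 1.02 (log2) became 0.63, with overlap, for the whole site, an alternative chosen after seeing the data. NR4A1 gave 0.135 among summit records and between -3.64 and 0.242 with a library left out, the latter without replicate 2 of WT post UV. Among promoter regions EGR2 gave 1.74, IER3 3.66 and NR4A1 4.38. By pileup (log2) EGR1 gave 0.26, EGR2 0.53, IER2 0.26, IER3 0.86, IER5 0.47, NR4A1 0.79, KLF6 0.045 and SRF 0.043. With limma (log2) IER3 gave 0.082 and NR4A1 0.12. A peak list holds only regions past its p-value limit, so that an absent site may lie just under it. The depth of unlisted sites is unknown, and 2 libraries per group set the precision.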
